A study of Mus musculus with 7 samples.

Results

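The receptors for the incretin hormones, glucagon and their relatives form a family of 8 class B G protein-coupled receptor genes in this series: Glp1r, Gipr, Gcgr, Glp2r, Ghrhr, Vipr1, Vipr2, and Adcyap1r1. All 8 were found among the 21938 protein-coding genes of the mouse annotation used here (GENCODE vM21, GRCm38/mm10). Each gene body and 20 kb on either side of it formed a window. Distinct ATAC-Seq peaks that overlap a window were its members, and the 7 peak lists together held 379 of them. ATAC-Seq marks open chromatin, since the Tn5 transposase cuts and tags DNA where it is not wrapped away. Alpha cells (2 libraries), beta cells (3), and delta cells (2) were FACS-sorted from the islets of healthy mice that carry mIns1-H2b-mCherry and Rosa-LSL-YFP together with either Gcg-Cre or Sst-Cre. A nuclear mCherry under an Ins1 promoter marks the beta cells, and YFP switched on by Cre marks alpha cells in the Gcg-Cre cross and delta cells in the Sst-Cre cross. Every animal carried the reporters, animals were pooled by sex, and no age was given. A beta library can come from the same animals as an alpha or a delta library, while alpha and delta libraries come from different crosses.

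The deposited names of the 3 beta lists name a different islet cell type from the label, and the label was used throughout, so each beta value below rests on it. The number in the deposited name differs from the replicate number of the label in all 7 lists, so values of a single replicate, such as alpha 2, rest on the label too. The lists held between 75860 and 518503 distinct peaks, with the highest number in beta 1. At a -log10 q of at least 2 (q is the false discovery rate that the peak caller attached to a peak within its own library), 41683 to 52057 peaks remained in the alpha and delta lists and 25903 to 38058 in the beta ones. Of 7 alpha marker genes, both alpha lists had a peak of this strength at the 5' end of all 7, the delta lists at 6 and 5, and each beta list at 2. Of 8 beta marker genes, the beta lists had one at 4, 2, and 4, and the other 4 lists at 3 or 4. Of 5 delta marker genes, the delta lists had one at 4 each, the alpha lists also at 4 each, and the beta lists at 2, 1, and 1. By these counts the beta lists were not set apart by beta markers. At the 5' end of Ins1, a peak among the 50000 strongest was held by beta 1, beta 3, and delta 1, with strength scores (log2(50000/rank), higher is stronger) of 2.84, 1.85, and 0.47, and the other 4 lists scored 0 (exact permutation p = 0.238). The reporter also carries an Ins1 promoter. Ins2 had a 5' end peak in beta 3 alone. A site absent from the beta lists cannot be told apart from a site missed in a list with fewer strong peaks. In the study's sample table, beta 1 and beta 2 have fewer uniquely mapped reads than any alpha or delta library. Lower folds in the beta lists cannot be told apart from this difference in depth. Cpa1, Cela1, and Prss1, which define acinar cells, and the duct gene Krt19 had no peak at the 5' end in any list. The endothelial gene Cdh5 and the leukocyte gene Ptprc had none either. Others on these marker lists did have peaks. Ptf1a, on the acinar list, had one in both alpha lists, below a -log10 q of 2. The duct gene Spp1 had one in alpha 1, delta 1, and delta 2, and the endothelial gene Kdr in delta 1. Those of Spp1 in the delta lists and of Kdr reached a -log10 q of 2. Pecam1 had one in alpha 2, Cel, Krt7, and Cd68 in beta 1, and Adgre1 in beta 1 and delta 1. Over these lists, 0 or 1 of 6 acinar genes (Bhlha15 in all lists at any strength), 0 or 1 of 3 duct genes, 0 or 1 of 3 endothelial genes, and 0 of 3 immune genes had a 5' end peak with a -log10 q of at least 2 in a given library. Their part in the results was not tested.

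These receptors bind peptide hormones of the secretin and glucagon family and act mainly through Gs, adenylyl cyclase, and cAMP. In beta cells, cAMP raises the amount of insulin released at a given glucose level, which is the incretin effect of GLP-1 and GIP. Glucagon acts on Gcgr and also on Glp1r, while the neuropeptides VIP and PACAP reach islets through nerve endings and act on Vipr1, Vipr2, and Adcyap1r1. Glp2r is known for its role in intestinal growth, and Ghrhr for growth hormone release from the pituitary.

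Promoters of 3 members are printed here because a peak lies on them in most lists. They run from 250 bases before to 50 bases after the RefSeq start site (GRCm38.p6), 5' to 3' on the strand of the gene, and RefSeq promoters were found for 6 of the 8 members, without Gipr and Ghrhr. Capitals mark matches, on either strand, to the GC box (GGGCGG), which Sp1-type factors bind, and to TGACG, the core of the cAMP response element. The RefSeq start of Glp1r lies 50 bases after the GENCODE 5' end. In the Vipr1 promoter a GC box and the TGACG match share a base.
Glp1r, chr17:30901617-30901916, plus strand: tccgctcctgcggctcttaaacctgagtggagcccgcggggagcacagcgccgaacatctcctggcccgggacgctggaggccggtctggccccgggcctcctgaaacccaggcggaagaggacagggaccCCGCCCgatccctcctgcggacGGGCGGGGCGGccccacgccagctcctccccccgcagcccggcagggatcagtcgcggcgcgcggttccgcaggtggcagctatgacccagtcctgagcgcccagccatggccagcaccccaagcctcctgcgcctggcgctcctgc
Vipr1, chr9:121642466-121642765, plus strand: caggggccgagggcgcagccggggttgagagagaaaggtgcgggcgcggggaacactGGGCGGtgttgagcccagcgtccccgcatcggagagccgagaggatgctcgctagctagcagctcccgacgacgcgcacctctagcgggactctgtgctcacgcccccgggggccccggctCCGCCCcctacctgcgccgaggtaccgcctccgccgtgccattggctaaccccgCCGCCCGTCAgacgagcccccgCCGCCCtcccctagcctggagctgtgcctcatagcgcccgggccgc
Vipr2, chr12:116077476-116077775, plus strand: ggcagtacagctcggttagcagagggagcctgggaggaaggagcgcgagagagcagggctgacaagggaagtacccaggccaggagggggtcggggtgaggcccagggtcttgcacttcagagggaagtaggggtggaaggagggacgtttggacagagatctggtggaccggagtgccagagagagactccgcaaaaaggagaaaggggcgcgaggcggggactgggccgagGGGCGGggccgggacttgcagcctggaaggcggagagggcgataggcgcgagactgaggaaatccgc

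The members differed in accessibility at the 5' end. A peak reaching to less than 1 kb from the start of the gene (a TSS peak) was present in all 7 lists for Gipr, Vipr1, and Vipr2, in 4 for Glp1r, in 3 each for Ghrhr and Adcyap1r1, and in 1 each for Gcgr and Glp2r, which makes 33 of 56 pairs of gene and list. The 3 of 8 members with a TSS peak in all 7 lists stand near the 41.5% of all protein-coding genes with one in all 7. With at least 2 replicates required, 4 members had a TSS peak in alpha cells, 5 in beta cells, and 4 in delta cells. Over all protein-coding genes, 56.8% had one in at least 2 alpha replicates, 56.1% in at least 2 beta replicates, and 54.1% in at least 2 delta replicates, so the shares of the family were close to the background. Of the 5 beta members, Glp1r and Ghrhr rest on beta 1, and 3 remained without it. In sorted bulk cells, a weak peak in every cell and a strong peak in a few cells cannot be told apart.

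**Figure D1:**
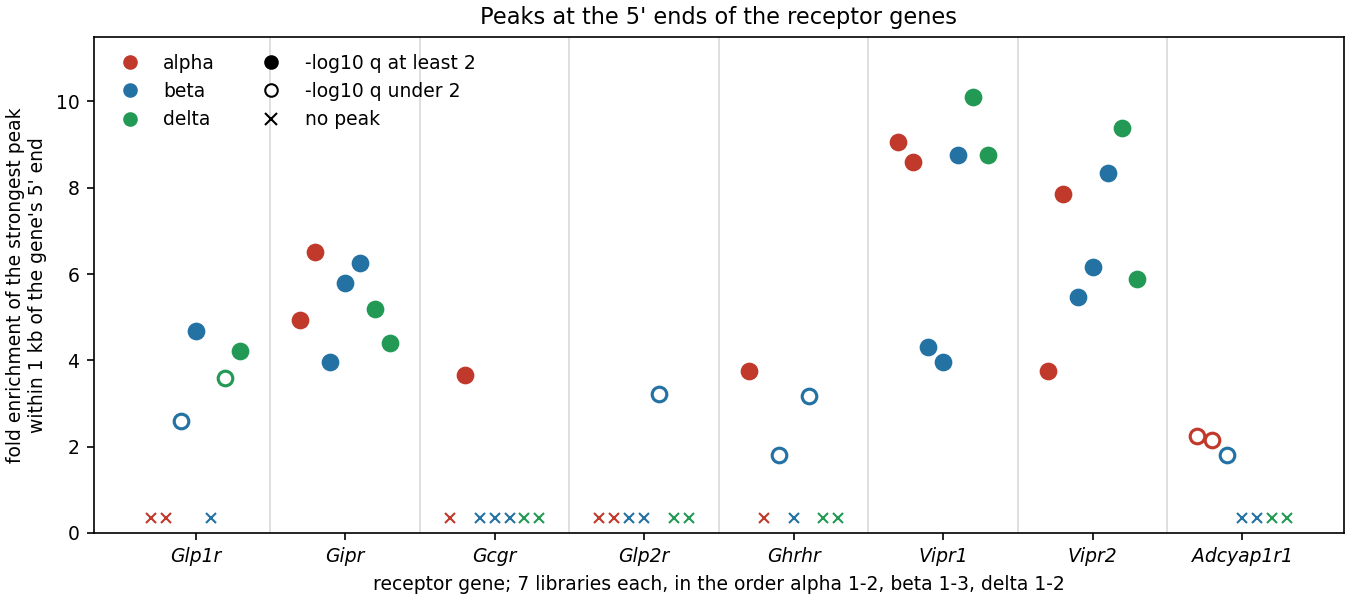
Fold enrichment over local background (vertical axis) of the strongest TSS peak of each receptor gene, with 1 mark per library in the order alpha 1 and 2, beta 1 to 3, and delta 1 and 2. Filled circles have a -log10 q of at least 2, open circles less, and crosses mark lists without a peak. Gipr, Vipr1, and Vipr2 have filled circles in all 7 lists, and Glp1r has crosses in both alpha lists and in beta 3.

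The highest folds at a 5' end were those of Vipr1 and Vipr2, which bind VIP and PACAP. Vipr1, the VPAC1 receptor, lies on chromosome 9 (121642716 to 121672954, plus strand), and the region at its 5' end (121642462 to 121643085) overlapped the first exon and its UTR. Its fold enrichment over local background was 9.05 and 8.61 in alpha cells, 4.31, 3.97, and 8.75 in beta cells, and 10.1 and 8.75 in delta cells. Beta 1 and beta 2 were lowest, and beta 3 lay within the range of the alpha and delta lists. The 5' end of Lyzl4 lies at the same region, so the peak cannot be assigned to either gene. Vipr2, the VPAC2 receptor (chromosome 12, 116077726 to 116146261, plus strand), had a region at its 5' end from 116077206 to 116078359. Its folds were 3.75 and 7.87 in alpha cells, 5.47, 6.15, and 8.33 in beta cells, and 9.38 and 5.88 in delta cells. All cell types overlapped.

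For Adcyap1r1, the PAC1 receptor that prefers PACAP (chromosome 6, 55451978 to 55501451, plus strand), the 5' end was weak. The folds were 2.25 and 2.14 in alpha cells and 1.80 in beta 1, with -log10 q of 0.28, 0.18, and 0.08, and the other 4 lists had no TSS peak. The alpha peaks overlapped each other, with summits 241 and 420 bp after the start, and the summit of beta 1 lay 750 bp before it.

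At the incretin receptors, Gipr (chromosome 7, 19156061 to 19166127, minus strand) had an accessible 5' end in every cell type. The region across its first exon had folds of 4.93 and 5.88 in alpha cells, 3.33 and 5.80 in beta 1 and beta 2, and 5.19 and 3.79 in delta cells, and beta 3 had no peak there. A second region of 294 bp (19165094 to 19165387), with its summit 0.88 kb into the gene in intron 1 and its edge at exon 2, was present in all 7 lists, and beta 3 had its fold of 6.25 there. Counting both regions, every list had a TSS peak with a -log10 q of at least 2.

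Glp1r (chromosome 17, 30901817 to 30940791, plus strand) had no TSS peak in either alpha list. The region at its 5' end (30901564 to 30901960), which overlaps exon 1, had folds of 2.59 in beta 1, 4.69 in beta 2, 3.58 in delta 1, and 4.20 in delta 2, and beta 3 had no peak. Only beta 2 and delta 2 reached a -log10 q of 2, with 3.41 and 3.21. Presence in at least 2 beta replicates and in no alpha replicate held for 14.8% of all consensus regions, and presence in at least 2 delta replicates and in no alpha replicate for 5.13%, a consensus region being a merged interval with peaks of at least 2 lists. Without beta 1, 1 of the remaining 2 beta lists had the Glp1r peak. Without the 3 beta lists, 18 of 32 pairs of gene and list had a TSS peak and 33 consensus regions remained. The whole promoter printed above for Glp1r lies within the interval of this region.

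The remaining 3 receptors had few TSS peaks. Gcgr, the glucagon receptor (chromosome 11, 120530699 to 120538986, plus strand), had one in alpha 2 alone, with a fold of 3.67 and a -log10 q of 2.03. Glp2r (chromosome 11, 67661502 to 67771153, minus strand) had one in beta 3 alone, with a fold of 3.21 and a -log10 q of 1.43. Ghrhr (chromosome 6, 55376295 to 55388530, plus strand) had one in alpha 1 with a fold of 3.75, in beta 1 with 1.80, and in beta 3 with 3.17. Alpha 1 and beta 1 met in a region of intron 1 (55377152 to 55377376), with the alpha 1 summit 980 bp after the start, and the beta 3 summit lay 106 bp before the start. In the 200 bases around the summit of the shared region, a 20-base string occurs 6 times.

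In all, 5' ends included, the windows held 208 merged regions, of which 51 had peaks in at least 2 lists. The other 157 (75.5%, against 84.0% of all merged regions) had a peak in a single list. Of these 157, 73 came from beta 1, as did 415555 of all 700997 single-list regions. The 51 consensus regions comprised 9 at the 5' end of a member, 1 at another start of a member, 8 at the 5' end of another gene, 7 in exons, 7 in introns, 11 upstream, and 8 downstream. A -log10 q of at least 2 was reached in at least 1 list by 33 of them and in all 7 lists by 6. These 2 shares were not computed over all consensus regions, so they are not set against a background. Peaks of all 7 lists met in 12 of the 51 regions (23.5%), against 13.3% of all 133698 consensus regions. Presence in at least 2 alpha replicates and no beta replicate held for 6 regions (11.8%, background 5.41%). At 1 of them, Gipr exon 9, beta 2 had a peak just outside the merged interval. Presence in at least 2 beta replicates and no alpha replicate held for 9 (17.6%, background 14.8%). In each of these 9, beta 1 was 1 of only 2 beta lists with a peak, so none meets the rule without beta 1. Only the Vipr2 region 10.956 kb upstream had a -log10 q of at least 2 in both beta lists. Between alpha and delta cells, 1 region was present in at least 2 alpha replicates only (1.96%, background 5.38%) and 2 in at least 2 delta replicates only (3.92%, background 5.13%). Between beta and delta cells, 8 were beta only (15.7%, background 13.2%), all again with beta 1 as 1 of 2 beta lists. There were 3 delta only (5.88%, background 4.85%).

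**Figure D2:**
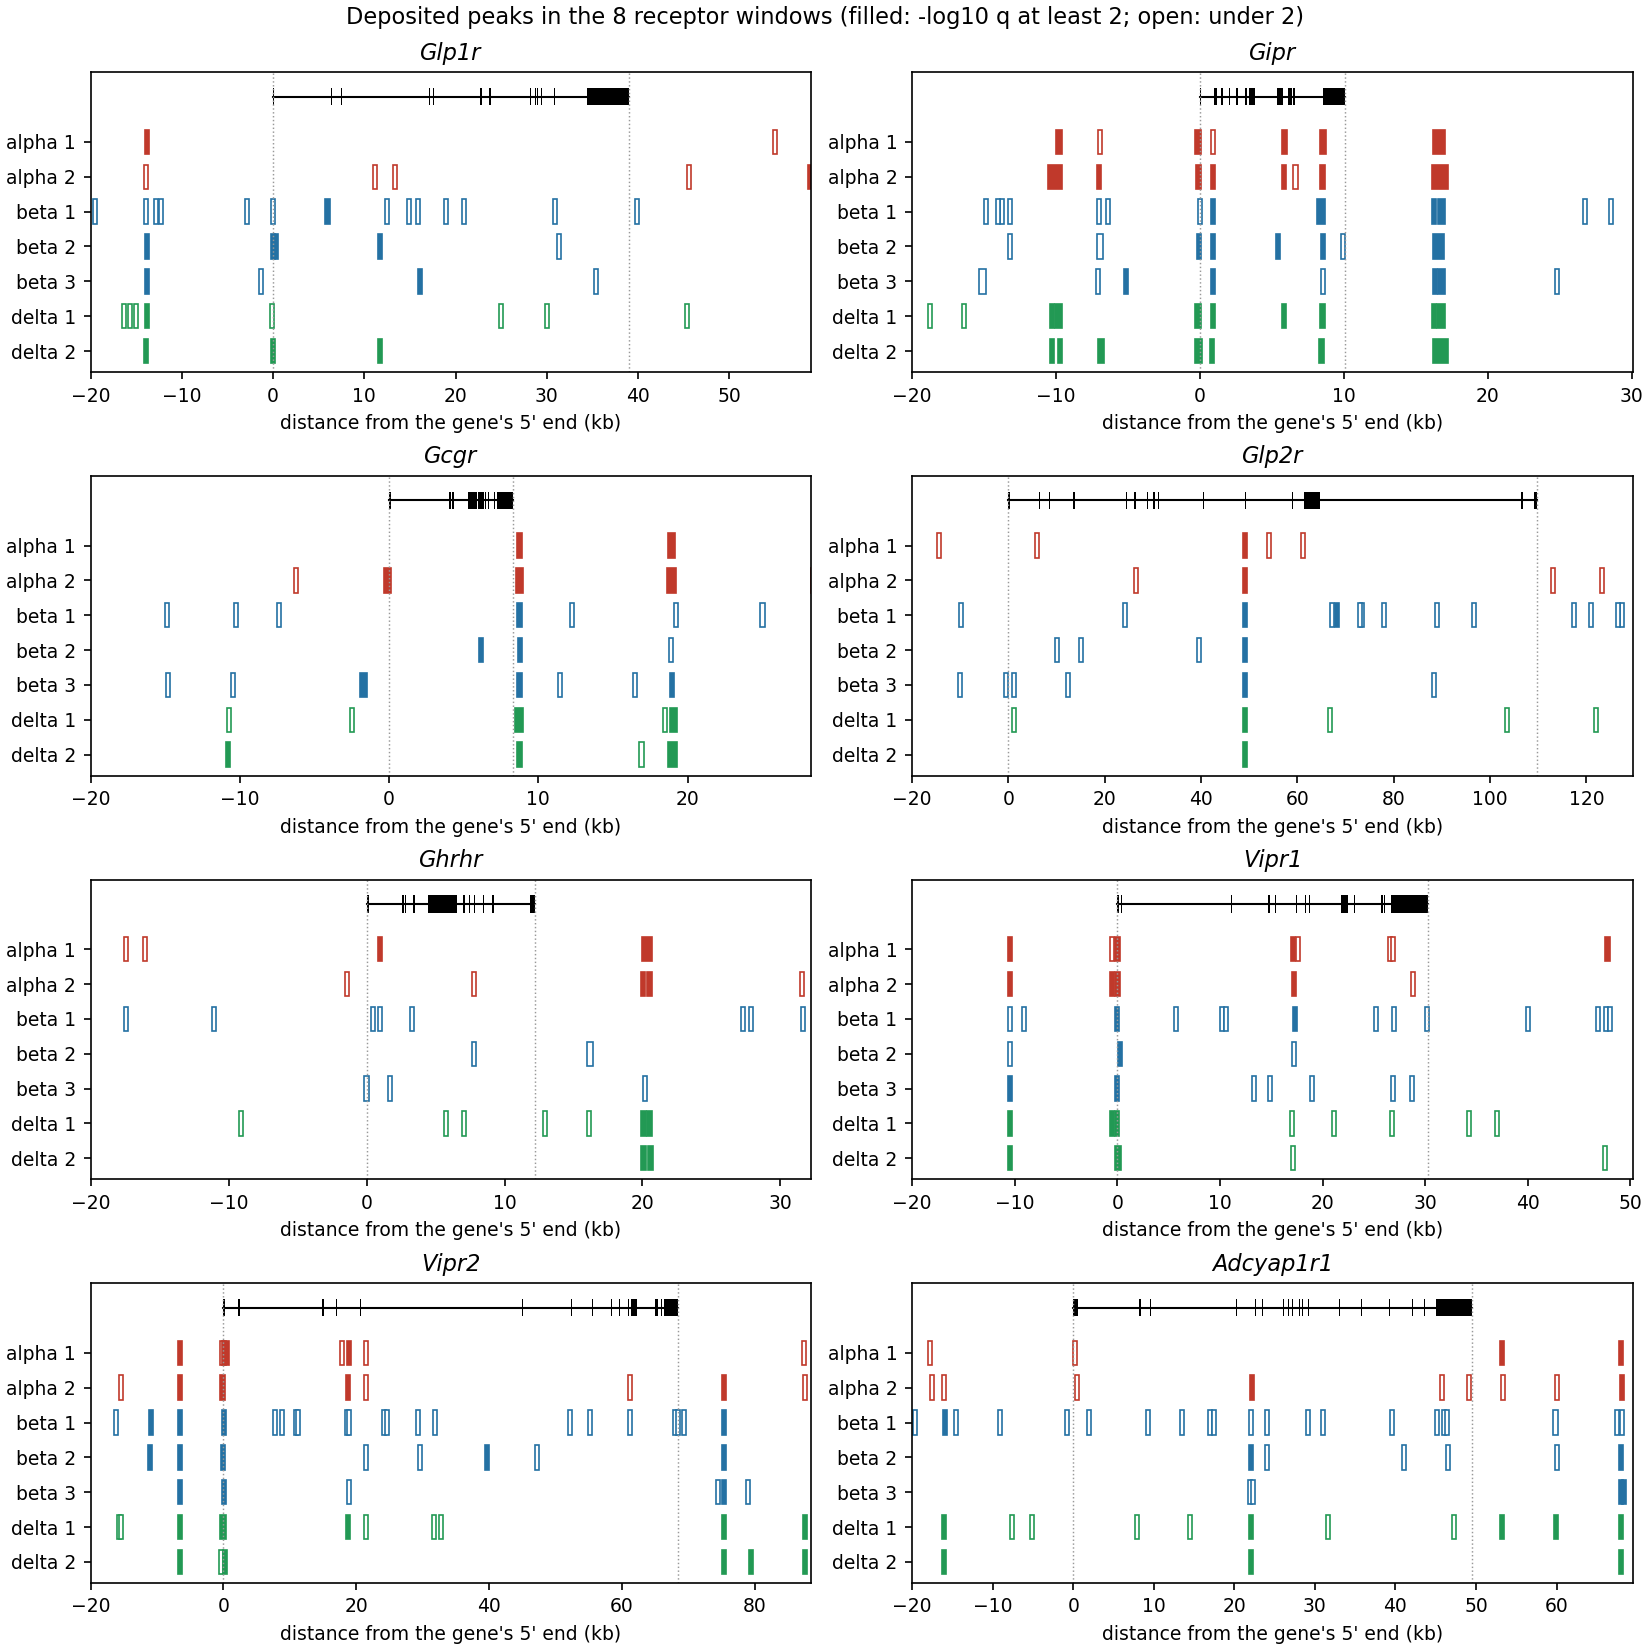
Deposited peaks in the 8 receptor windows, drawn by distance from the 5' end of the gene in kb along its direction of transcription, with 1 row per library and the gene with its exons in black above. Red rows are alpha, blue beta, and green delta. Filled boxes have a -log10 q of at least 2, and narrow peaks are drawn wider than they are so that they can be seen. Of the 379 peaks, 150 are filled. Beta 1 has 112 peaks, of which 15 are filled.

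The Gipr window was the most densely accessible of the family. Among the 50000 strongest peaks of each list, it held 11.7 peaks per 100 kb as a mean over the 7 lists, more than 99.3% of the protein-coding genes, and Gcgr held 6.21, Vipr2 4.34, and Vipr1 3.86. Adcyap1r1 held 3.03, Glp1r 2.89, and Ghrhr 2.73, close to the median of 2.86 over all genes, and Glp2r was lowest with 1.43. The cut at 50000 falls among tied peaks, which were ordered by chromosome name. In beta 2, a peak with a fold of 3.39 was counted at Gcgr (rank 36116) and an equal one at Vipr1 (rank 50028) was not. The order of the genes by density therefore depends in part on the chromosome. Some of the counted peaks lie at neighbouring genes. The strongest region of the Gipr window in every list (19148871 to 19150009) lies at the 5' ends of Snrpd2, a spliceosome protein gene, and Qpctl, with folds from 9.57 to 14.8. The Mcrip1 5' end in the Gcgr window and the Eml2 5' end in the Gipr window are described with the other differences below.

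Within the Gipr gene, the last exons (19157399 to 19157971) carried a region that was present in all 7 lists. The fold was 5.75 and 3.85 in alpha cells, 5.22, 4.29, and 3.03 in beta cells, and 10.5 and 9.46 in delta cells. The delta lists were both above the other 5. A pair of cell types cannot reach significance here, since the smallest p is 0.1 for 2 libraries against 3 and 0.333 for 2 against 2. Over the 3 cell types, the exact permutation p of the strength score described below was 0.219 for this region. Each 50-base piece of its summit window occurs once on the assembled chromosomes, and the 200 bases are printed because the 2 delta lists were highest there, with a GC box and a TGACG match in capitals.
Gipr last exons, chr7:19157566-19157765, minus strand: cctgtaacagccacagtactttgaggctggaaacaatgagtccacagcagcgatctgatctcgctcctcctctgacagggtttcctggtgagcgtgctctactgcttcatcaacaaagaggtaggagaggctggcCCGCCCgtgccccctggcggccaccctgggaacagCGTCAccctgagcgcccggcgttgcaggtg
A further region at Gipr exon 9 (19160090 to 19160451) had folds of 4.89 and 4.85 in alpha cells and 4.33 in delta 1, all with a -log10 q above 3. No peak of the beta lists or delta 2 overlapped it. Beta 2 had a separate peak close by (19160584 to 19160784), with a fold of 4.61 and a -log10 q of 3.05.

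The Glp1r window held 4 consensus regions. Next to the 5' end, the region shared by all 7 lists lay 13.9 kb upstream (30887764 to 30888156), with folds of 3.75 and 2.93 in alpha cells, 2.70, 4.24, and 3.73 in beta cells, and 4.17 and 4.20 in delta cells. Intron 3 held the other pair. The region 11.8 kb into the gene (30913411 to 30913639) had peaks in beta 2 and delta 2, with folds of 4.24 and 4.20. The region 16.025 kb into the gene (30917643 to 30918036) had a fold of 5.62 in beta 3 and 1.80 in beta 1. Its sequence is printed because it holds the strongest Glp1r peak of beta 3 and is a tandem repeat.
Glp1r intron 3, chr17:30917742-30917941, plus strand: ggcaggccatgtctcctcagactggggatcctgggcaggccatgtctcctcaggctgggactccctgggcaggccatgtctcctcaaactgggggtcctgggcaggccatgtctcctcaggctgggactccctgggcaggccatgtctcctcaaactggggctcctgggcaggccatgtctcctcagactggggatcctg
In this window a 20-base string occurs 5 times, and 1 of 4 pieces of 50 bases occurs once on the assembled chromosomes. A string with at least 4 copies was found in 3.09% of all consensus regions and in 3 of the 51 here, a search made after the values had been seen. Its part in the beta 3 peak was not tested.

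Glp2r had a single strong region, in exon 11 of 13 and 49.1 kb from the 5' end. It was present in all 7 lists, with folds of 9.42 and 8.07 in alpha cells, 11.9, 11.2, and 11.8 in beta cells, and 10.6 and 12.1 in delta cells. Both alpha lists were lowest, and the beta lists lay between the delta lists. The rank in the list, from the strongest peak down, was 11007 and 15469 in alpha, 2183, 2754, and 5111 in beta, and 11499 and 6471 in delta cells. A fold of 11.9 thus ranked higher in beta 1 than a fold of 12.1 in delta 2, whose list held more strong peaks. The edges of this peak were nearly the same in every list, since the starts differed by at most 2 bp and the ends by 0 bp. Over the 17759 regions present in all 7 lists the median differences were 199 and 204 bp, and 269 regions (1.51%) had both edges within 3 bp, a comparison chosen after the values had been seen. The 139 bp exon lies inside the peak. The cause of the shared edges was not tested.

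Around Ghrhr, the accessible site lay outside the gene, 8.29 kb beyond its 3' end and at the 5' end of the long noncoding RNA gene 6430584L05Rik (55396199 to 55397036). Folds were 8.57 and 8.52 in alpha cells and 5.06 and 6.06 in delta cells. Beta 3 had a fold of 2.41 with a -log10 q of 0.52, and beta 1 and beta 2 had no peak. The order alpha, delta, beta held without overlap between the lists, and the exact permutation p over the 3 cell types was 0.00952, the smallest that 7 libraries allow. Over all 88738 consensus regions tested in this way, a test added after the values had been seen, 6.89% had a p under 0.05 and none an adjusted p under 0.05 (lowest 0.573). The site stands within 20 kb of Ghrhr by the rule, and nothing here ties it to that gene. Its sequence is shown because the Ghrhr scores below rest on it, with a match to CAGATG, an E-box that NeuroD factors bind, in capitals.
6430584L05Rik 5' end in the Ghrhr window, chr6:55396725-55396924, plus strand: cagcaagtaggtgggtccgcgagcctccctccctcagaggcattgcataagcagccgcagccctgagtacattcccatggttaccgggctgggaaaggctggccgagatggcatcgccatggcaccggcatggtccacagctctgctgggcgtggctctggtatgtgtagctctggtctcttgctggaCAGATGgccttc

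Gcgr had its most accessible site 0.49 kb beyond its 3' end (120539114 to 120539698), in all 7 lists and with a -log10 q of at least 2 in each. The fold was 6.25 and 9.28 in alpha cells, 4.51, 5.47, and 5.07 in beta cells, and 5.73 and 8.59 in delta cells. The beta lists were lowest, and the gap to delta 1 was small (5.47 against 5.73). By rank the cell types overlapped, with an exact permutation p of 0.838. The Mcrip1 5' end, 18.9 kb from the Gcgr 5' end (120549335 to 120550055), had folds of 6.0 and 8.54 in alpha cells, 1.80, 3.39, and 3.85 in beta cells, and 5.02 and 5.07 in delta cells, with no overlap between the cell types and an exact permutation p of 0.00952. The adjusted value was 0.573.

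Beyond the Vipr1 5' end, a region 10.5 kb upstream (121632072 to 121632414), at the 5' end of Gm47097 and inside Lyzl4, was present in all lists. Its folds were 8.67 and 6.63 in alpha cells, 2.70, 3.39, and 5.07 in beta cells, and 8.11 and 6.56 in delta cells, so the beta lists were again lowest. The exact permutation p by rank was 0.152. A region around exon 4 (121659548 to 121660462) had folds of 4.50 and 6.17 in alpha cells and 3.61 in beta 1, each with a -log10 q of at least 2. In beta 2, delta 1, and delta 2 it had folds of 2.54, 2.15, and 2.52 with a -log10 q below 1, and beta 3 had no peak.

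Vipr2 held 10 consensus regions, the most of the 8 genes. The region 6.51 kb upstream (116071015 to 116071436) was present in all lists, with folds of 6.75 and 5.13 in alpha cells, 6.92, 5.47, and 10.4 in beta cells, and 6.45 and 6.67 in delta cells. The region 6.80 kb beyond the 3' end (116152836 to 116153452), at the 5' ends of the microRNA gene model Gm44372 and the pseudogene Gm48618, was the strongest of the window in beta 1 and in both delta lists. Its folds were 11.3 in beta 1, 4.84 in beta 2, 7.25 in beta 3, and 13.0 and 11.3 in delta cells, while alpha 2 had 7.14 and alpha 1 had no peak. Alpha and beta cells overlapped there. In intron 4 (116096260 to 116096860), the alpha lists were highest with folds of 5.996 and 5.33, delta 1 had 4.30, beta 1 had 3.33, beta 3 had 2.41, and beta 2 and delta 2 had no peak. A downstream region 19.0 kb beyond the 3' end (116165072 to 116165547) had peaks in both alpha lists (2.94 and 2.93) and both delta lists (8.54 and 4.29) and in no beta list. A 20-base string occurs 16 times in its summit window, of which 79.0% is repeat-masked.

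Adcyap1r1 carried its accessible sites away from the 5' end. The region 22.1 kb into the gene in intron 4 (55473765 to 55474420) was present in 6 lists, with folds of 4.40 in alpha 2, 2.70, 5.08, and 3.21 in beta cells, and 6.33 and 5.0 in delta cells, and with no peak in alpha 1. The region 18.5 kb beyond the 3' end (55519810 to 55520583) was present in all 7 lists, with folds of 5.996 and 6.34 in alpha cells, 2.63, 7.63, and 4.82 in beta cells, and 9.72 and 5.04 in delta cells. At both, the cell types overlapped, and their exact permutation p values were 0.629 and 0.971. The region 3.79 kb beyond the 3' end (55505054 to 55505405) had folds of 3.75 and 2.93 in alpha cells and 5.73 in delta 1, and the other 4 lists had no peak.

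**Figure D3:**
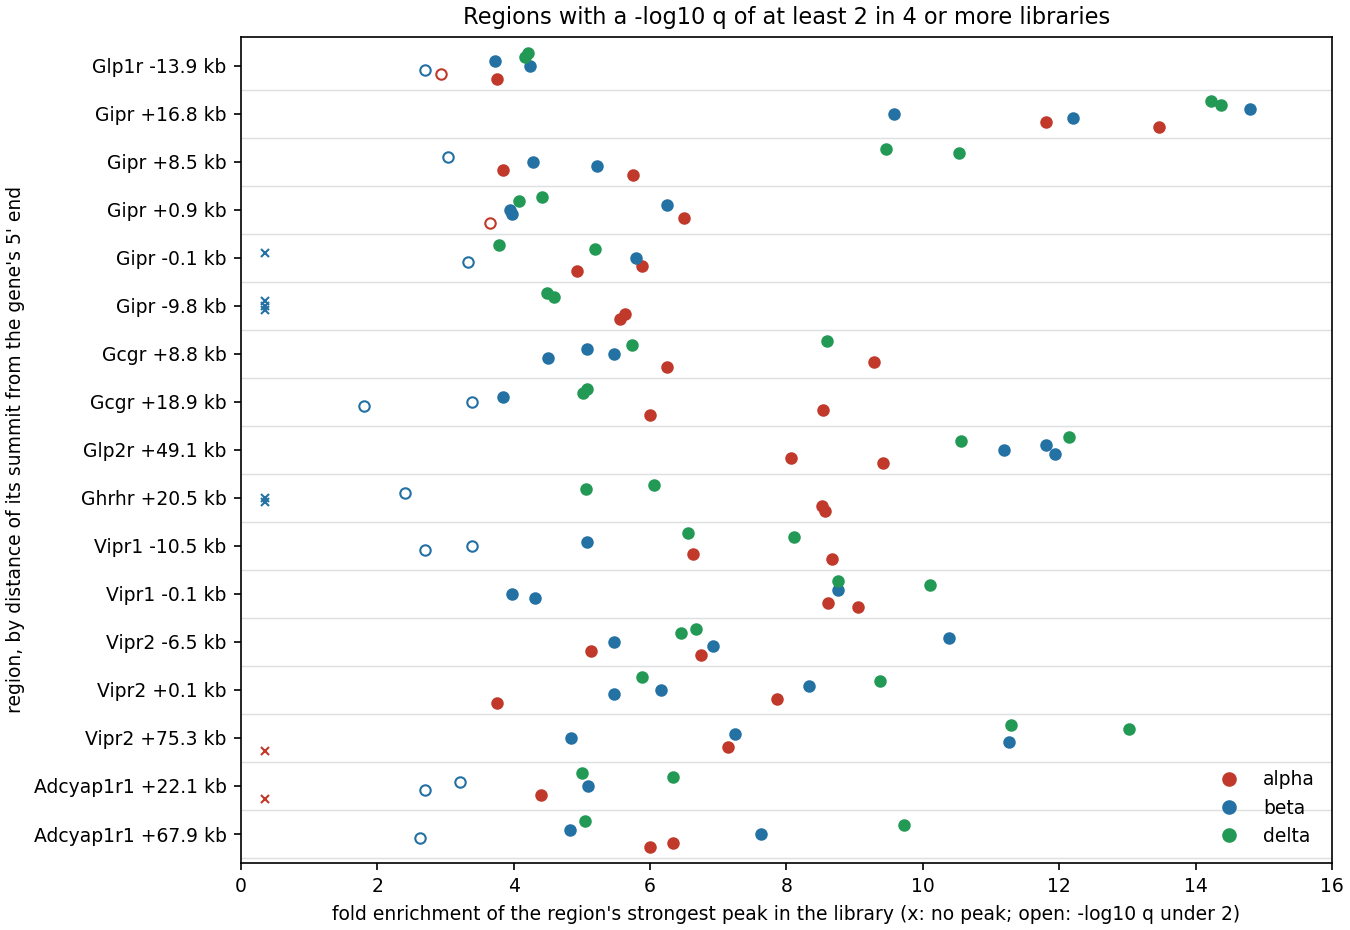
Fold enrichment (horizontal axis) in each library of the 17 regions in the receptor windows whose -log10 q was at least 2 in 4 or more lists, named by the gene and the distance of the summit from its 5' end in kb. Crosses mark lists without a peak, and open circles a -log10 q under 2. The row Ghrhr +20.5 kb has both alpha lists highest and beta lists lowest or without a peak, and in Gipr +8.5 kb both delta lists are highest.

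Among the regions at neighbouring genes, the Eml2 5' end, 9.85 kb upstream of Gipr (19175691 to 19176679), had folds of 5.56 and 5.63 in alpha cells and 4.60 and 4.49 in delta cells, and no peak in any beta list. Its exact permutation p was 0.00952 and its adjusted p 0.573. Presence in at least 2 alpha and 2 delta replicates and in no beta replicate held for this region and for the downstream Vipr2 region, 2 of 51 (3.92%), against 1.43% of all consensus regions. Of the 39 regions of the windows that could be tested, 4 had an exact permutation p under 0.05 (10.3%, against 6.89% of all regions), and none an adjusted p under 0.05. The fourth was the Glp2r exon. Of these 4, 3 lie at the 5' end of another gene.

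To compare whole genes, the strongest peak of each window was given a score of log2(50000/rank), which is 0 where no peak is among the 50000 strongest of its list and higher for a stronger peak. The score was compared between the cell types over all 210 assignments of the 7 libraries by an exact permutation test without direction, adjusted over all protein-coding genes by the method of Benjamini and Hochberg. For Glp1r the scores were 0.18 and 0.19 in alpha cells, 1.00, 1.48, and 1.64 in beta cells, and 0.19 and 0.59 in delta cells. The beta lists were above all others (exact permutation p = 0.0190, adjusted p = 0.435). By fold the cell types overlapped, since the same peaks had folds of 3.75 and 3.67 in alpha, 3.51, 4.69, and 5.62 in beta, and 4.17 and 4.20 in delta cells, with beta 1 lowest of the 7. The separation thus rests on the rank within lists that hold different numbers of strong peaks. The beta lists did not share the peak behind the score, which lay 5.74 to 6.22 kb into the gene in beta 1, at the 5' end in beta 2, and in the tandem repeat in beta 3. For Glp2r the scores were 2.18 and 1.69 in alpha cells, 4.52, 4.18, and 3.29 in beta cells, and 2.12 and 2.95 in delta cells (exact permutation p = 0.0476, adjusted p = 0.468). For Ghrhr they were 1.96 and 1.87 in alpha cells, 0, 0.10, and 0 in beta cells, and 0.71 and 1.24 in delta cells, all from the 6430584L05Rik site in alpha and delta cells (exact permutation p = 0.00952, adjusted p = 0.405). For these 3 genes the beta lists did not overlap the other lists. With the gene body alone, which leaves that site out, the exact permutation p for Ghrhr was 1.

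**Figure D4:**
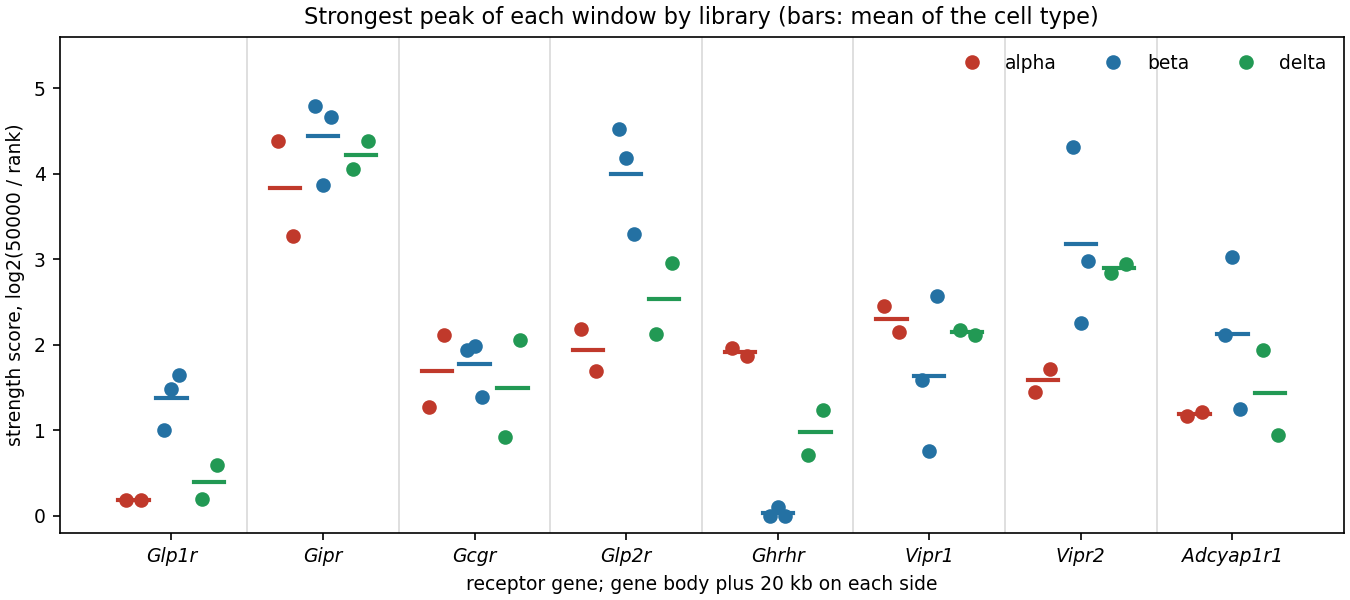
Strength score of the strongest peak in each receptor window (vertical axis, log2(50000/rank), higher is stronger), with 1 point per library and a bar at the mean of each cell type. Beta points lie above the others for Glp1r and Glp2r and at or near 0 for Ghrhr, and the cell types overlap for Gcgr and Vipr1.

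The other 5 genes gave exact permutation p values from 0.143 (Vipr2) to 0.838 (Gcgr). Over all 21073 genes with a score, 10.2% had a p under 0.05 and none an adjusted p under 0.05, so 3 of 8 stands beside a background of 10.2% and no call remained after adjustment. For the score at the 5' end, none of the 7 members that could be tested had a p under 0.05, and the lowest was 0.133 for Vipr2, with scores of 0.24 and 1.71 in alpha cells, 2.10, 2.25, and 2.44 in beta cells, and 1.89 and 1.16 in delta cells. The background was 9.70% of 14036 genes. For the number of peaks per window among the 50000 strongest, Glp2r had 1 in each alpha and delta list and 3, 4, and 4 in beta cells (exact permutation p = 0.0286, adjusted p = 0.726), against a background of 5.59%. The p was not under 0.05 in any of the 11 alternatives run for it (lowest exact permutation p 0.0556). At a -log10 q of at least 2, the beta lists held 2, 1, and 1, so all but 1 of the additional Glp2r peaks in beta cells were below it. In beta 2 and beta 3, every counted Glp2r peak except the exon region lay among tied peaks across which the cut at 50000 falls. So did the peak at rank 35797 in beta 1. The tied ranks ran from 30549 to 63958 in beta 1, 32960 to 51175 in beta 2, and 40296 to 73400 in beta 3. Ties were ordered by chromosome name, so this count and its p depend in part on that order. With a smallest p of 0.00952, an adjusted value could fall under 0.05 only if 19.0% of the genes reached it, and between 0.745% and 2.35% did in the 3 comparisons.

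The members' summit windows were of higher GC content than the background, with a median of 54.0% against 48.0% over all consensus regions, and less of them was repeat-masked (median 0% against 10.5%). GC boxes were found in 11 of the 51 windows (21.6%, background 11.4%). The full cAMP response element TGACGTCA was found in none, against 0.642% of all regions, and its core TGACG, which it contains on both strands, in 7 (13.7%, background 9.85%). CAGATG and TGCTGA, the core of the Maf recognition element, were found in 8 each (15.7%, backgrounds 18.3% and 18.8%), the forkhead motif TGTTTAC in 2 (3.92%, background 4.91%), and the homeobox motif TAATTA in 1 (1.96%, background 5.25%). Of the 51 regions, 9 lie at the 5' end of a member, 1 at another start, and 8 at the 5' end of another gene. The share of such positions among all consensus regions was not computed. The differences in GC content and GC boxes are thus not set apart from the position of the regions. In the promoters, GC boxes were found in 5 of the 6 members with a RefSeq sequence, all except Glp2r, against 35.7% of 32851 promoters. No member promoter held TGACGTCA, which occurs in 1.79% of them, and that of Vipr1 alone held TGACG (20.8%).

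The genes of the pathway around the receptors were described in the same way. Of 27 genes of G proteins and cAMP signalling, 22 had a TSS peak in at least 2 alpha replicates, 23 in at least 2 beta replicates, and 22 in at least 2 delta replicates, and 15 in all 7 lists. Over all protein-coding genes these shares were 56.8%, 56.1%, and 54.1%, and 41.5% had a TSS peak in all 7 lists. Those in all 7 lists include the catalytic kinase subunit genes Prkaca and Prkacb, the cAMP-responsive factor gene Creb1, and Rapgef3, which encodes the cAMP sensor Epac1. At a -log10 q of at least 2, a TSS peak was held by 21 and 22 of the 27 genes in the alpha lists. In the beta lists it was held by 12, 14, and 16, and in the delta lists by 21 and 18. The beta lists also hold fewer peaks of this strength in total, and the share of all genes at this strength was not computed for each list. For Adcy7, an adenylyl cyclase gene, both alpha and all 3 beta lists held a TSS peak and neither delta list did. A -log10 q of at least 2 was reached in 2 of these 5 lists, and the exact permutation p of the score was 0.829. Adcy4 and Adcy10 had one in a single beta list, and Prkar2a in none. By the score at the 5' end, 2 of the 27 had an exact permutation p under 0.05, Adcy8 (0.0190) and Crtc1 (0.0476), near the background of 9.70%, and none an adjusted p under 0.05. Adcy8, a calcium-stimulated cyclase, scored 1.54 and 2.02 in alpha cells, 0, 0, and 0.35 in beta cells, and 1.29 and 1.83 in delta cells.

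Of 10 genes of receptor partners and breakdown, 7, 8, and 7 were open at the start site by at least 2 replicates in alpha, beta, and delta cells, beside the same shares over all genes. Dpp4, the protease that inactivates GLP-1 and GIP, and the arrestin genes Arrb1 and Arrb2 had one in all 7 lists. Ramp2 had one in beta 1 and beta 3 only, below a -log10 q of 2 in both. Pde4d had one in 1 alpha and 2 beta lists, and Pde8b in none. Among 6 ligand genes, Gcg, which encodes glucagon and GLP-1, was marked by a TSS peak in alpha 1, alpha 2, and delta 2 and in no beta list. Gip, Ghrh, and Vip had none, Adcyap1 had one in 1 alpha and 1 beta list, and Sct in 1 alpha and 1 delta list. Of 7 other class B receptor genes, Pth2r had one in all 7 lists and Calcrl in 6. Sctr had one in 1 alpha and 1 beta list, Calcr in 1 beta list, Crhr1 in 2 beta lists, and Pth1r and Crhr2 in none. In all 4 lists together, 37 of the 50 genes could be tested and 4 had an exact permutation p under 0.05 (10.8%, background 9.70%), with Gcg (0.0381) and Calcrl (0.0476) beside Adcy8 and Crtc1.

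The genes with the 5' end scores most like those of a member, by Euclidean distance over the 7 libraries, were found for the 7 members with a score above 0. For Glp1r they were Tmem242 (distance 0.20) and Shank1 (0.31), for Gipr Vgll2 (0.65) and Gabpb2 (0.75), and for Vipr2 Mtx3 (0.91) and Enc1 (0.93). Lyzl4 was at distance 0 from Vipr1, because both genes share the peak between them, and Rps6kl1 followed at 0.49. The scores of Gcgr, Glp2r, and Ghrhr rest on 1 list each. For them 8859, 8843, and 8855 genes lie within a distance of 0.5, so their nearest genes (Cavin1 and Gm11569, Gltpd2 and Scimp, and Hoxa5 and Klf14) are not set apart from other genes without peaks.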

How the data were processed

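ATAC-Seq libraries of sorted mouse alpha (n = 2), beta (n = 3), and delta cells (n = 2) were grouped by their labels. The labels call them biological replicates, and p values measure the spread between these libraries. Per the labels and the methods of the study, the authors trimmed reads with Trimmomatic, aligned them to mm10 with Bowtie2, marked duplicates with Picard, left out blacklisted regions, and called peaks in each library with MACS2. Another beta library is not analysed here. The deposited peak lists give each summit a fold enrichment ratio over local background, a -log10 p, a -log10 q, and a display score, which was not used. Reads per region were not used here, so a count test was not run and strengths were compared by rank. Total reads per library are not in the lists, and the numbers of peaks limit the precision.

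Distinct intervals were taken as peaks and placed against GENCODE vM21 (GRCm38). Overlapping peaks were merged (at least 1 bp), and a region with peaks of at least 2 libraries was called a consensus region. A TSS peak overlaps the start of the gene extended by 1 kb both ways. Strength scores used the 50000 strongest peaks by -log10 p, ties by fold and position, and exact permutation tests over 210 assignments with Benjamini-Hochberg adjustment (Python 3.11.15, numpy 2.4.6, pandas 2.3.3), tested on simulated data. The 8 members, the pathway and marker lists, and the tests were chosen with earlier results of these data known. All members were described, and other genes were named from those lists, as neighbours of a region, or as the 2 genes nearest in score. Alternatives were thresholds, windows, ranking, a replicate block, a block by sex pool as the study's sample table gives it, and leaving out libraries. Motifs were searched on both strands of 200 bases around each summit. The sequences of some regions are not reported here.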

Additional observations from a re-analysis of the deposited data

How the results depend on the processing

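The 33 TSS peaks of the members became 25 at a -log10 q of at least 2, 26 among the 50000 strongest peaks, 38 within 3 kb, 34 at any transcript start, and 27 to 29 with 1 library left out, and 18 without the 3 beta lists, which was chosen after seeing the data. The 51 consensus regions became 24 in the gene bodies alone, 80 within 50 kb, 28 at a -log10 q of at least 2, 29 among the 50000 strongest peaks, 30 in at least 3 libraries, 33 without the 3 beta lists, and 38 to 49 with 1 library left out. With 1 library left out, the tests between cell types gave from 0 to 0 adjusted calls, and the other alternatives gave 0 as well. For peaks per locus, 1177 genes had an unadjusted exact permutation p under 0.05, against 48 with all deposited peaks and 2159 at a -log10 q of at least 2. Libraries of the same replicate number had correlations of deviations from -0.0306 to 0.0145. In the study's sample table, beta libraries differ in sex pool from alpha and delta libraries of the same number. These values therefore cannot show whether libraries share animals, and no correlation was computed by sex pool. The fit with the replicate number as a block gave 0 calls, its smallest exact permutation p being 0.0556. A block by sex pool, added after seeing the data, allowed 72 assignments and gave 0 adjusted calls, with unadjusted p under 0.05 for 677 genes at the 5' end (1362 without it), 1080 by strongest peak (2144), and 258 by peaks per locus. In it the exact permutation p for the strongest peak was 0.0278 for Glp1r and Ghrhr, the smallest it gave, and 0.111 for Glp2r. The p for the strongest peak was under 0.05 in 5 of 12 alternatives for Glp1r, 3 of 12 for Glp2r, and 7 of 12 for Ghrhr. With the gene body alone, Gipr turned from beta highest to delta highest (mean scores 1.23, 1.94, and 2.28 in alpha, beta, and delta cells, exact permutation p = 0.00952, adjusted p = 0.433); this alternative leaves out the Snrpd2 region. With 2 or 3 libraries a group, no adjusted call could be reached at these shares.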
